A study of Mus musculus with 4 samples.

Results

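Genes of the tumour necrosis factor (TNF) superfamily were followed in mouse myeloid leukaemia cells that carry MLL-AF9, a fusion oncogene of the MLL and AF9 genes. Members were the transcripts named Tnfsf or Tnfrsf with a number, together with Tnf, Lta, Ltb, Ltbr, Fas, Fasl, Cd27, Cd40, Ngfr and Eda2r. They came to 38 RefSeq transcripts of 37 genes, 14 ligand and 23 receptor genes, among 18061 transcripts of 16545 symbols. Cd70, also a ligand of the family, was not analysed here. All samples were C57BL/6 cells taken from bone marrow and grown in liquid culture, of the stated genotype Ring1a-/-;Ring1bf/f Cdkn2a-/-. The floxed gene encodes RING1B, a ubiquitin ligase of Polycomb repressive complex 1 (PRC1), a silencer of genes through histone H2A, and the genotype given for both groups is null for its partner RING1A and for the cell-cycle inhibitor locus Cdkn2a. Cells were treated for 72 h with EtOH (ethanol, 2 samples) or with OHT (commonly hydroxytamoxifen, which activates recombinases fused to an oestrogen receptor domain, 2 samples). The labels name no recombinase and do not say whether the samples of a group were separate cultures, animals or clones. No cells lacking the floxed allele but given OHT were analysed here, so OHT itself and loss of RING1B cannot be told apart.

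TNF superfamily ligands are mostly trimeric proteins of the cell membrane, many of which can be cut off and act at a distance. Their receptors carry cysteine-rich repeats outside the cell. Some have a death domain inside the cell that can start apoptosis through FADD and caspase-8, and others recruit TRAF adaptors that activate NF-kB and stress kinases. In myeloid cells the family is known for inflammatory signalling, for survival and for contact with lymphocytes. The comparison of OHT with EtOH asks how the mRNA of ligands and receptors stood after treatment to remove PRC1 activity, which the series title links to leukaemic cell identity.

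The values are the authors' group means of normalised reads, their fold changes (OHT over EtOH) and their p-values adjusted over all 18061 transcripts, and "rose" is used for an adjusted p under 0.05 there. Each mean was solved into whole reads of 2 libraries per group, called A and B, which cannot be tied to the sample numbers in the labels. Libraries held 3841243 to 6255320 reads. Library values below are reads plus 1, divided by the library's size factor, so that A and B average to the deposited mean. Rnf2, the floxed gene, stood at 636 with EtOH and 757 with OHT in the authors' deposited table (adjusted p = 1). Ring1, which encodes RING1A, had 60 and 65 reads in EtOH libraries A and B and 177 and 84 in OHT libraries A and B, and the authors' deposited table gives it group means of 68.3 and 122 (adjusted p = 0.385). Cdkn2a had 72 and 29 reads with EtOH and 52 and 46 with OHT, and the authors' deposited table gives it 49.8 and 48.5. All 3 genes thus had reads in every library. The deleted exons are not stated, so these levels do not check the labels. In these bulk samples fewer cells of a type and less RNA per cell cannot be told apart.

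By the authors' deposited table, OHT-treated cells had more mRNA of 5 of the 37 genes, which rose, while none fell: the ligands Tnfsf9, Tnfsf12 and Tnfsf14 and the receptors Tnfrsf23 and Tnfrsf1b. Of all transcripts, 3.62% rose and 1.85% fell by the same rule (5.48% in either direction). None of the 37 genes was lower at an unadjusted p under 0.05 in that table, where 1199 of the 18061 transcripts were. Positive log2 fold changes were listed for 33 genes, against 51.7% of all transcripts, and the median over the 37 was 0.67, against 0.04 over all transcripts. The deposited table has no transcript with 0 reads in every library, so a member with 0 reads in 1 group had its sign fixed. This held for Tnfsf11, Tnfsf15, Fasl, Ngfr, Eda2r and Cd40 (0 with EtOH) and for Tnfsf12Tnfsf13 (0 with OHT). Over the 22 genes with at least 10 reads in 2 libraries the median was 0.71, against -0.07 over all such transcripts. Both OHT libraries lay above both EtOH libraries for 21 of the 37, where this held for 26.3% of all transcripts, and below for 1, where this held for 26.5%. Of those 21, 6 (Tnfsf4, Tnfsf8, Tnfsf11, Tnfrsf13c, Ngfr and Eda2r) rest on few reads. At most 3 reads in each group were found for 6 genes, namely Tnfsf8, Tnfsf15, Fasl, Cd27, Eda2r and Cd40, and no change of theirs was detectable at this depth.

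A second fit, limma-voom on the solved reads, covered the 22 member genes with at least 10 reads in 2 libraries, 6 ligands and 16 receptors. It called the same 5 genes higher, and Tnfrsf1a and Tnfrsf26 as well, at an adjusted p under 0.05, and none lower. By that rule 9.72% of the 11338 fitted transcripts were higher and 5.49% lower, where the authors' test called 5.77% and 2.95% of the same transcripts. With 2 residual degrees of freedom a missing call does not show an unchanged gene.

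Promoter windows are shown for the risen genes that had one in the RefSeq table of GRCm38.p6, to show how CpG, the dinucleotide of the promoters where PRC1 is known to bind, was spread in them. Each is the 250 bases before the annotated start on the gene's strand, 5′ to 3′, with CpG in capitals.
Tnfsf14, chr17:57194182-57194431, minus strand: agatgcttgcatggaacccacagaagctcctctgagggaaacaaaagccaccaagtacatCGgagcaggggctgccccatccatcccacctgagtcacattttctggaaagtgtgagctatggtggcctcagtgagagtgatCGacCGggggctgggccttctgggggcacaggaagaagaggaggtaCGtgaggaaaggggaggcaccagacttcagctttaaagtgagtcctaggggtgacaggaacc
Tnfrsf1b, chr4:145246871-145247120, minus strand: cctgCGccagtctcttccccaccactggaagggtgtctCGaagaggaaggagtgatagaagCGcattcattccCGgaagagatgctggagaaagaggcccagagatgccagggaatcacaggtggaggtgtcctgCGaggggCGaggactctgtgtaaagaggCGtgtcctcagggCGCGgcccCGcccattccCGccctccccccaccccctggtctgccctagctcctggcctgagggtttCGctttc
Tnfrsf23, chr7:143685876-143686125, minus strand: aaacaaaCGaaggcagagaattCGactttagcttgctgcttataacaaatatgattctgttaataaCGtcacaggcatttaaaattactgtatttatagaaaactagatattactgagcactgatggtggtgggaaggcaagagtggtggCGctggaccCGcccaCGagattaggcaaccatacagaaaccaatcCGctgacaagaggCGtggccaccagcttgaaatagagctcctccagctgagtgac
The 3 windows differ from each other. That of Tnfsf14 held 4 CpG, that of Tnfrsf23 8 and that of Tnfrsf1b 12, with ratios of observed to expected CpG of 0.21, 0.64 and 0.49. Over the 29 member genes with a window the median was 8 CpG and a ratio of 0.43, and over 11956 genes of the table with a window it was 14 and 0.68. Ligand windows had a median of 6 CpG (10 genes) and receptor windows one of 9 (19 genes). The CpG-richest member window was that of Tnfrsf11a, with 31.

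Motifs were searched in the same windows on both strands, and a match is a description only. An NF-kB motif (GGGANN followed at once by TTCC) was found in 1 of the 29 member windows, that of Ltb, and in 1.21% of all windows. The AP-1 motif (TGANTCA) was in 3 member windows (Tnfsf14, Fas and Tnfrsf8) and in 5.05% of all windows. In the Tnfsf14 window shown above it begins at base -160 from the start. An SP/KLF motif (GGGCGG) was in 14 member windows and 53.8% of all, with matches on the minus strand at -67 and -57 in the Tnfrsf1b window and at -92 in that of Tnfrsf23. An ETS motif (GAGGAAG) was in 4 member windows and 11.1% of all, with a match at -208 in the Tnfrsf1b window. None of these motifs was common to the 3 windows shown.

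Among ligands, Tnfsf9, which encodes the 4-1BB ligand, a costimulator of T cells also made by activated myeloid cells, stood at 87.1 and 33.9 in EtOH libraries A and B and at 248 and 290 in OHT libraries A and B. Both OHT libraries lay above both EtOH libraries, and the lower OHT value was 2.85 times the higher EtOH value. The authors' deposited table gives 60.5 and 269, a 4.45-fold rise (adjusted p = 5.92e-06). Limma-voom gave a log2 fold change of 2.23 ± 0.40 (SE, adjusted p = 0.00744), which moved to 3.0 when EtOH library A was left out and to 1.62 when EtOH library B was, with a call each time. On GRCm38, Gm11110 overlaps Tnfsf9 on the opposite strand, and it rose too, from 36.2 to 99.7 (2.75-fold, adjusted p = 0.0334, authors' deposited table). Strand is not kept by the kit used, so where the pair overlaps its reads cannot be told apart.

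Tnfsf14 encodes LIGHT, a ligand of the lymphotoxin beta receptor and of HVEM. It was the most abundant ligand, at 365 and 240 in EtOH libraries A and B and 816 and 900 in OHT libraries A and B. The groups were well apart and the OHT libraries close together. The authors' deposited table lists a 2.84-fold rise from 302 to 858 (adjusted p = 0.000128), and limma-voom gave 1.5 ± 0.25 (SE, adjusted p = 0.00534). No library moved that value by more than 1.5 times when left out.

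Tnfsf12 encodes TWEAK, a cytokine of tissue repair and inflammation made by monocytes and macrophages. It stood at 24.9 and 5.21 in EtOH libraries A and B, from 29 and 3 reads, and at 62.2 and 88.2 in OHT libraries A and B. OHT lay above EtOH, but the EtOH libraries differed 4.78-fold from each other. The authors' deposited table lists a 5.0-fold rise from 15.0 to 75.2 (adjusted p = 0.00841). Limma-voom put its log2 difference at 2.63 ± 0.66 (SE, adjusted p = 0.0260), with 3.99 without EtOH library A, and with 1.57 and no call without EtOH library B (adjusted p = 0.0583). The GENCODE transcript of Tnfsf12 shares 47.2% of its runs of 36 bases with the read-through transcript Tnfsf12Tnfsf13, which had 4 reads with EtOH and 0 with OHT. How such shared reads were counted is not stated, so both values are uncertain. Tnfsf13os also overlaps Tnfsf12 on the opposite strand.

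**Figure D1:**
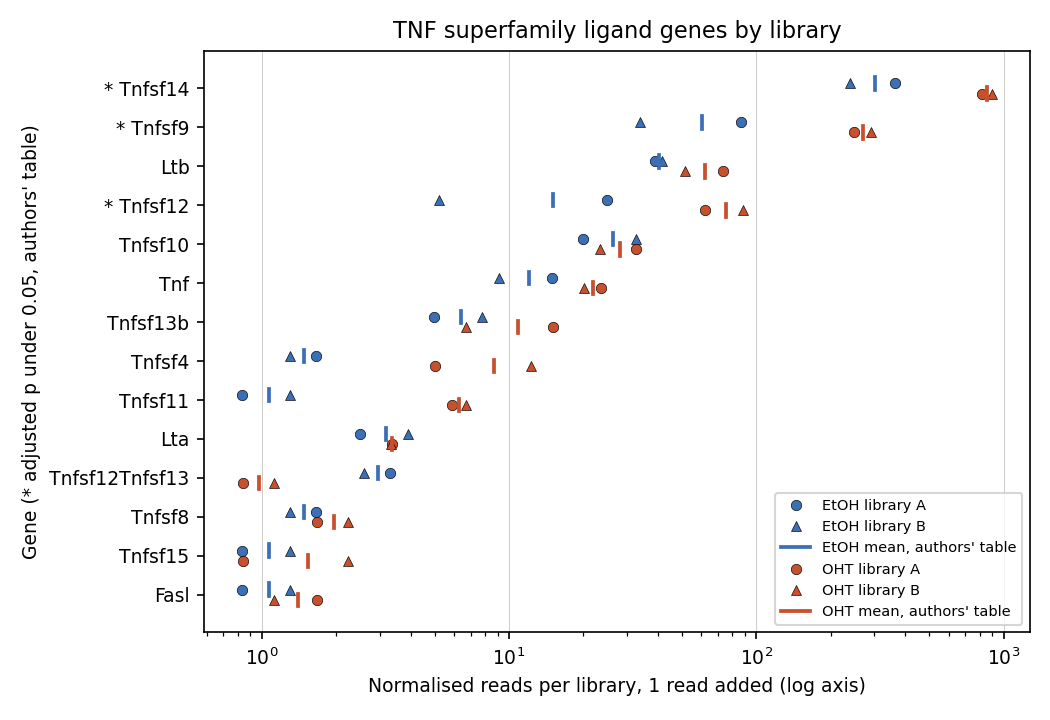
Normalised reads of the 14 ligand genes (log axis, 1 read added) in EtOH libraries (blue) and OHT libraries (orange-red), with circles for library A, triangles for library B and bars for the authors' group means; an asterisk marks an adjusted p under 0.05. Tnfsf14, Tnfsf9 and Tnfsf12 have both OHT libraries well to the right of both EtOH libraries, while the genes at the bottom lie near 1.

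The other ligands did not pass the test. Ltb, the membrane anchor of lymphotoxin heterotrimers, stood at 39.0 and 41.7 with EtOH and 73.1 and 51.4 with OHT (1.54-fold, adjusted p = 0.684, authors' deposited table). Tnf itself was low, with 17 and 6 reads in EtOH libraries A and B and 27 and 17 in OHT libraries A and B. The authors' deposited table lists a 1.81-fold difference for it (adjusted p = 0.922), and the groups did not overlap. Tnfsf10, which encodes the death ligand TRAIL, overlapped between groups at 19.9 and 32.6 with EtOH and 32.8 and 23.4 with OHT (1.07-fold, adjusted p = 1, authors' deposited table), and its limma-voom value turned negative without EtOH library A (-0.21) or OHT library A (-0.07).

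Further ligands were near the limit of counting. Tnfsf11, the osteoclast factor RANKL, had 0 reads with EtOH and 11 with OHT, at least 3.47-fold higher with 3 reads over the EtOH group as the floor, while the exact 95% interval of the ratio for counting error only begins lower, at 2.37 (adjusted p = 0.727, authors' deposited table). Tnfsf4, the OX40 ligand, had 1 read and 15, a ratio of 14.2 with an exact 95% interval of 2.18 to 597 for counting error only (adjusted p = 0.609, authors' deposited table). Tnfsf13b, the B-cell survival factor BAFF, had 10 reads and 22, a ratio of 2.08 (0.946 to 4.92), and overlapped between groups. Lta, the soluble lymphotoxin, had 4 reads and 5. Tnfsf8, Tnfsf15 and Fasl, the ligand of Fas, had at most 3 reads in each group.

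Among receptors, Tnfrsf23 had the largest fold of those that rose. It encodes a mouse receptor that binds TRAIL and lacks a death domain. It stood at 281 and 159 in EtOH libraries A and B and at 825 and 690 in OHT libraries A and B, so the lower OHT value was 2.45 times the higher EtOH value. The authors' deposited table lists a 3.44-fold rise from 220 to 757 (adjusted p = 3.24e-06), and limma-voom gave 1.79 ± 0.29 (SE, adjusted p = 0.00450). It was called in each omission of 1 library.

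Tnfrsf23 lies beside Tnfrsf22 and Tnfrsf26 on GRCm38, with no other protein-coding gene between them, and the 3 did not have like values. Tnfrsf26, a receptor of the same cluster, stood at 591 and 277 with EtOH and 748 and 1177 with OHT (libraries A and B). Its 2.22-fold difference did not pass the authors' test (adjusted p = 0.462, authors' deposited table). Limma-voom called it (1.17 ± 0.35 SE, adjusted p = 0.0470), with 1.77 without EtOH library A no call without EtOH library B (0.67, adjusted p = 0.123), and none when OHT library B was left out (0.85, adjusted p = 0.119). Tnfrsf22, the other TRAIL-binding receptor of the cluster, overlapped between groups, at 96.2 and 56.0 with EtOH and 71.4 and 106 with OHT (adjusted p = 1, authors' deposited table). Of the 36-base runs of the GENCODE Tnfrsf23 transcript 35.6% also occur in that of Tnfrsf22, so reads of this pair may have been split or lost. Tnfrsf26 shared none with either. E230032D23Rik, which overlaps Tnfrsf23 and Tnfrsf26 on the opposite strand, adds a further doubt about which gene their reads came from. Differences between the 3 genes were not tested.

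The receptors of TNF were both abundant and higher in both OHT libraries. Tnfrsf1b encodes TNFR2, which recruits TRAF2 and has no death domain, and it stood at 633 and 414 with EtOH and 1376 and 1150 with OHT (libraries A and B). The authors' deposited table lists a 2.41-fold rise from 523 to 1263 (adjusted p = 0.00107), and limma-voom gave 1.28 ± 0.25 (SE, adjusted p = 0.00962) and called it without each library in turn. Tnfrsf1a encodes TNFR1, the death domain receptor, and stood at 688 and 608 with EtOH and 1207 and 981 with OHT. Its 1.69-fold difference missed the threshold in the authors' deposited table (adjusted p = 0.107). Limma-voom gave 0.75 ± 0.21 (SE, adjusted p = 0.0413), and called it without EtOH library A (adjusted p = 0.0243) but not when EtOH library B (0.0736), OHT library A (0.401) or OHT library B (0.0621) was left out.

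**Figure D2:**
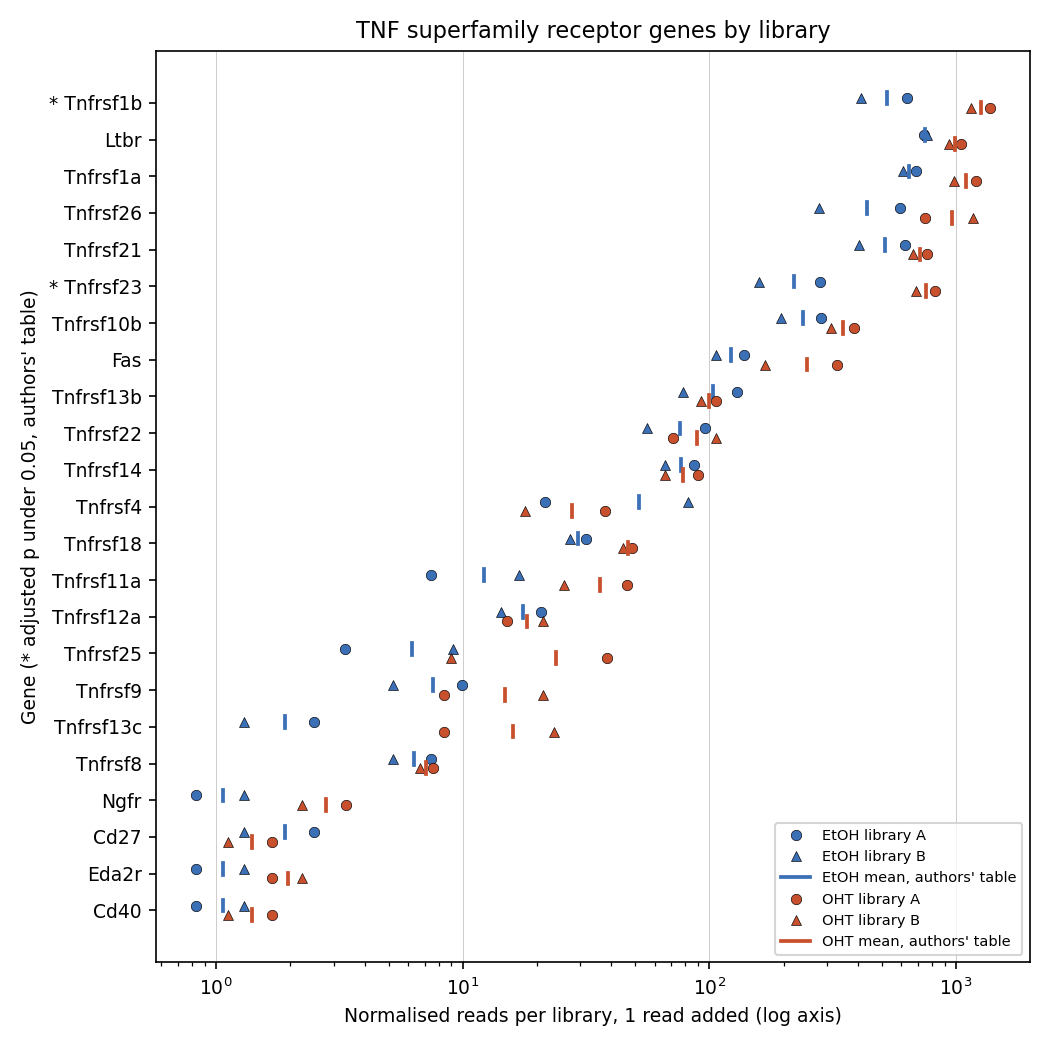
Normalised reads of the 23 receptor genes (log axis, 1 read added) in EtOH libraries (blue) and OHT libraries (orange-red), with circles for library A, triangles for library B and bars for the authors' group means; an asterisk marks an adjusted p under 0.05. Tnfrsf23 and Tnfrsf1b rose, and the OHT libraries of Ltbr, Tnfrsf1a, Tnfrsf26, Tnfrsf21, Tnfrsf10b and Fas also lie to the right of the EtOH libraries, by less.

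None of the 6 measured death domain receptors passed the authors' test, although all 6 log2 fold changes were positive, against 51.7% of all transcripts. The sign of Ngfr was fixed, as it had 0 reads with EtOH. The median of the 6 was 0.89, and 0.65 over the 4 that limma-voom fitted. Fas, the best-known death receptor, stood at 138 and 107 with EtOH and 328 and 169 with OHT (NM_007987, 2.03-fold, adjusted p = 0.552, authors' deposited table). Its OHT libraries differed 1.95-fold, and limma-voom called it only without OHT library B among the omissions of 1 library (1.42, adjusted p = 0.0117). A second Fas transcript (NM_001146708) had 6 reads with EtOH and 18 with OHT. Tnfrsf10b, the mouse death receptor for TRAIL, stood at 283 and 195 with EtOH and 385 and 311 with OHT (adjusted p = 0.539, authors' deposited table). Tnfrsf21 encodes death receptor DR6 and stood at 624 and 405 with EtOH and 763 and 668 with OHT (adjusted p = 0.629, authors' deposited table). It was called by limma-voom without EtOH library A (0.82, adjusted p = 0.0283).

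The remaining death domain receptors were low. Tnfrsf25, death receptor DR3, had 3 and 6 reads in EtOH libraries A and B and 45 and 7 in OHT libraries A and B, so that 1 library carried the 3.83-fold difference of means in the authors' deposited table (adjusted p = 0.734). Ngfr, the low-affinity neurotrophin receptor, had 0 reads with EtOH and 4 with OHT.

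Of 14 other receptors without a death domain 1, Tnfrsf1b, rose, and 11 had a positive log2 fold change in the authors' deposited table. Among these 11, Eda2r and Cd40 had 0 reads with EtOH, so their sign was fixed. Ltbr, the lymphotoxin beta receptor that drives alternative NF-kB signalling, stood at 740 and 762 with EtOH and 1048 and 941 with OHT (1.32-fold, adjusted p = 0.609, authors' deposited table). The EtOH libraries agreed closely and lay below both OHT libraries. Tnfrsf11a, the RANK receptor of osteoclast precursors and dendritic cells, had 8 and 12 reads with EtOH and 54 and 22 with OHT. The authors' deposited table lists a 2.95-fold difference (adjusted p = 0.188). Limma-voom gave 1.78 ± 0.60 (SE, adjusted p = 0.0721), and a call when library B was left out of the EtOH group (2.30, adjusted p = 0.0471) or of the OHT group (2.19, adjusted p = 0.0300). Tnfrsf13c, the BAFF receptor of B cells, had 29 reads with OHT against 2 with EtOH, or 13.7 times as many at equal size factors (exact 95% interval 3.47 to 119, counting error only, adjusted p = 0.389 in the authors' deposited table).

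Several receptors of this kind overlapped between groups. Tnfrsf13b, the TACI receptor for BAFF and APRIL, stood at 129 and 78.1 with EtOH and 107 and 92.7 with OHT. Tnfrsf14, the LIGHT receptor HVEM, stood at 87.1 and 66.4 with EtOH and 89.9 and 65.9 with OHT (1.01-fold, adjusted p = 1, authors' deposited table). Tnfrsf12a, the TWEAK receptor Fn14, had 35 reads with OHT against 34 with EtOH, or 0.974 times as many at equal size factors (exact 95% interval 0.590 to 1.61, counting error only).

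Tnfrsf4, the T-cell receptor OX40, was the only fitted member other than Tnfrsf13b with a negative log2 fold change, and its libraries disagreed. It stood at 21.6 and 82.0 in EtOH libraries A and B and at 37.8 and 17.9 in OHT libraries A and B (adjusted p = 1, authors' deposited table). Limma-voom called it lower without EtOH library A (-1.64, adjusted p = 0.0368), gave 0.31 without EtOH library B, and made no call in the other 3 omissions. Its neighbour Tnfrsf18, the T-cell receptor GITR, stood at 31.5 and 27.3 with EtOH and 48.7 and 44.7 with OHT (adjusted p = 0.808, authors' deposited table). Tnfrsf9, the 4-1BB receptor, had 14 reads with EtOH and 27 with OHT, and Tnfrsf8, the CD30 receptor, 11 and 13, both with overlapping libraries. Cd27, the ectodysplasin receptor gene Eda2r and Cd40, here a non-coding transcript (NR_027852), had at most 3 reads in each group.

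**Figure D3:**
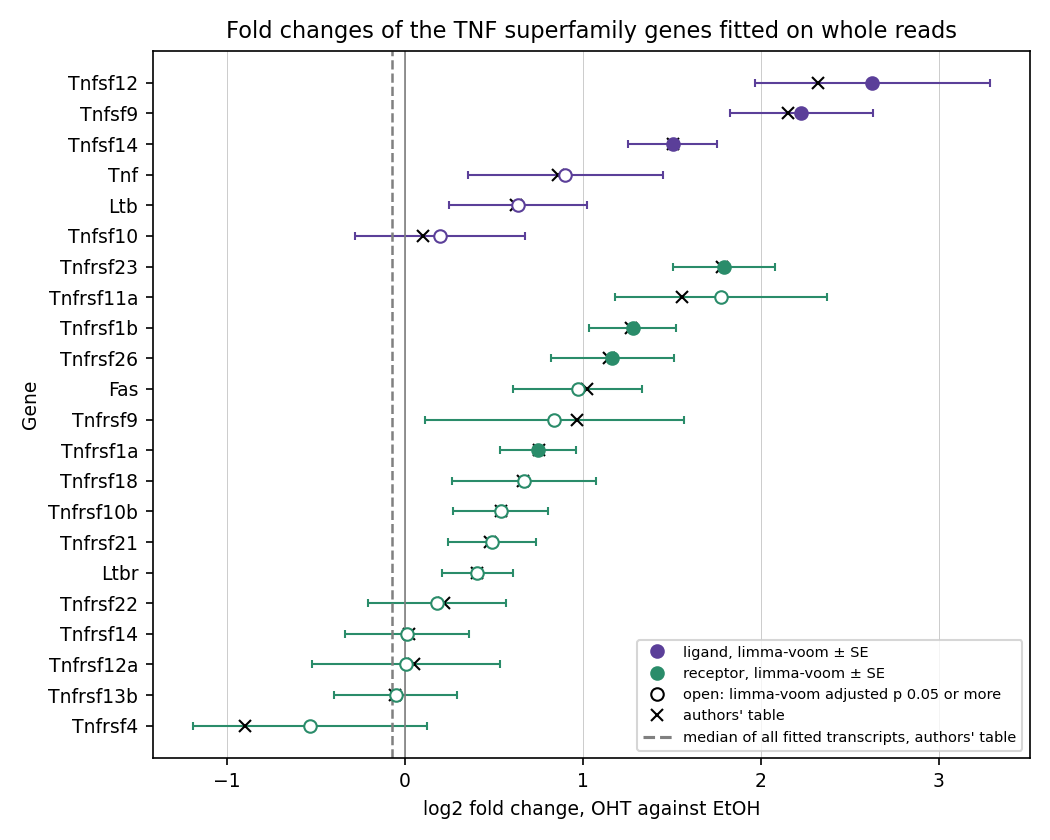
Log2 fold changes of the 22 member genes fitted on whole reads, as limma-voom values with standard errors (circles, filled for an adjusted p under 0.05) and as the authors' values (crosses), with the median of all fitted transcripts in the authors' table (-0.07) as a dashed line. Filled circles mark 3 ligands and 4 receptors, and Tnfrsf4 lies farthest to the left.

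Levels between genes were compared per kilobase of the matching GENCODE M21 transcript, which may differ from the gene model the authors counted on. With EtOH, Ltbr was the highest receptor at 356 normalised reads per kb, with Tnfrsf1a next at 301, and the libraries of these 2 did not overlap. Tnfrsf23 (149), Tnfrsf21 (142), Tnfrsf26 (140), Tnfrsf13b (138) and Tnfrsf1b (137) followed as levels per kb and overlapped one another between libraries. With OHT, Tnfrsf23 (513), Tnfrsf1a (507) and Ltbr (472) had overlapping levels per kb, ahead of Tnfrsf1b (331) and Tnfrsf26 (310), which overlapped each other. Of the ligands Tnfsf14 was the highest per kb in both groups (164 and 464), followed by Tnfsf9 (46.9 and 209).

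Setting ligands beside their receptors, no pair of the 17 had both a ligand and a receptor that rose. Tnfsf9 rose while its receptor Tnfrsf9 had 7.58 and 14.8 normalised reads on average (adjusted p = 1). Tnfsf12 rose while Tnfrsf12a was listed at 17.5 and 18.2 (adjusted p = 1), and Tnfsf14 rose while Tnfrsf14 was listed at 76.7 and 77.9 (adjusted p = 1) and Ltbr at 751 and 995, all in the authors' deposited table. In the other direction, Tnfrsf1b rose while Tnf was listed at 12 and 21.8, and Tnfrsf23 rose while Tnfsf10 had 26.2 and 28.1, by the authors' deposited table. Whether the change of a ligand differed from that of its receptor was not tested.

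**Figure D4:**
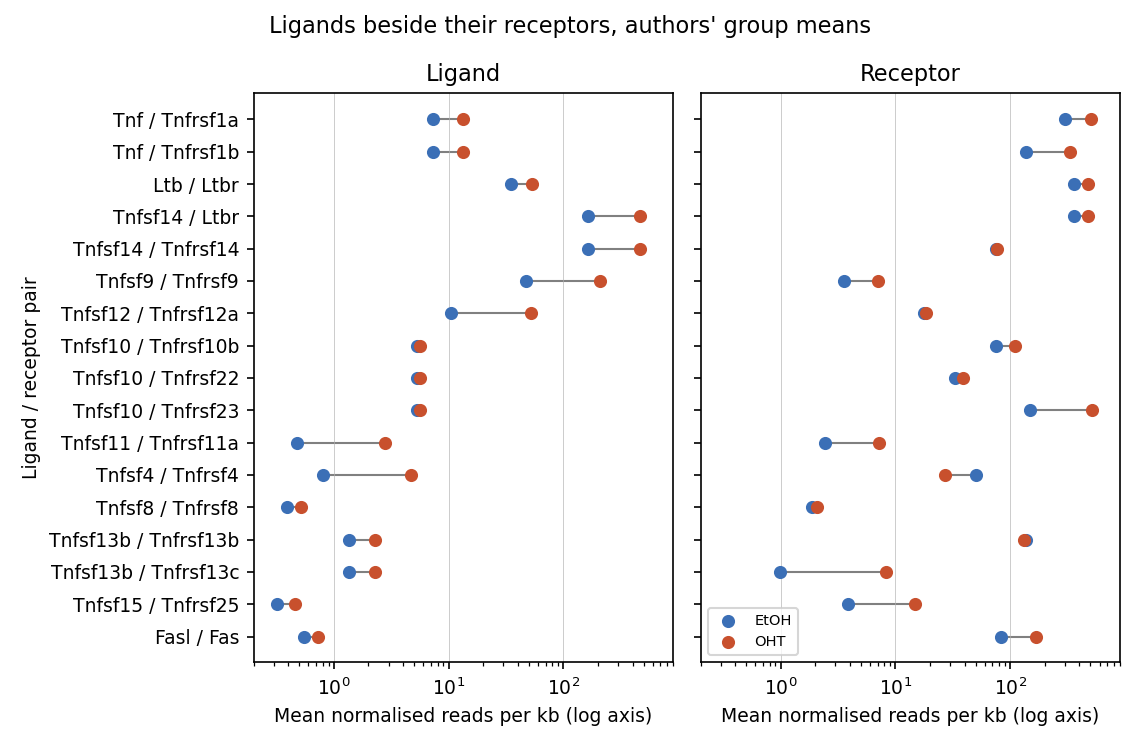
Mean normalised reads per kb (log axis, authors' group means, 1 read added per library) for 17 ligand and receptor pairs, with ligands on the left, receptors on the right, EtOH in blue and OHT in orange-red. Lines are long for Tnfsf9, Tnfsf12, Tnfsf14, Tnfrsf23 and Tnfrsf1b, which rose, and also for Tnfrsf11a and for the low genes Tnfsf11, Tnfsf4, Tnfrsf13c and Tnfrsf25, which did not pass the test; the points of Tnfrsf14, Tnfrsf12a and Tnfsf10 nearly coincide.

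Many members are neighbours on the chromosome, and the genes beside those that rose were looked up on GRCm38. Tnfsf9 and Tnfsf14 lie in 1 run of family genes, and both rose. C3, the complement component next to Tnfsf14, rose 2.05-fold from 1751 to 3597 (adjusted p = 0.00603), and Tubb4a, a tubulin gene next to Tnfsf9, rose 3.41-fold from 21.3 to 72.4 (adjusted p = 0.0244), both in the authors' deposited table. Of the 8 genes outside the family with a row within 2 protein-coding places of a risen member, these 2 rose and none fell. Of all transcripts 3.62% rose. Both of the 2 lie beside the 1 run of Tnfsf9 and Tnfsf14, and a link between neighbours was not tested. In other runs the genes differed: Tnfrsf1b rose while its neighbour Tnfrsf8 was listed at 6.34 and 7.13, and by the authors' deposited table no gene of the run of Ltb, Tnf and Lta passed the test.

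The machinery downstream of the receptors was described by 4 lists of 69 genes, of which the authors' deposited table has 9 that rose and 0 that fell, with 1 lower at an unadjusted p under 0.05. Limma-voom called 14 of its 57 fitted genes higher and none lower, and called 2 lower without EtOH library A. Over all fitted transcripts limma-voom called 9.72% higher and 5.49% lower with all libraries. The median log2 fold change over the 69 was 0.47 in the authors' deposited table, against 0.04 for all transcripts. Of 29 adaptors and kinases 1 rose. It was Traf1, an adaptor of TNFR2 that is itself an NF-kB target, which went from 19.1 and 13 with EtOH to 71.4 and 86.0 with OHT (4.90-fold, adjusted p = 0.00161, authors' deposited table). The median of that list was 0.07.

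Against 3.62% of all transcripts, 1 of 12 NF-kB subunits and inhibitors rose, Nfkbia, which encodes the inhibitor IkB-alpha. It stood at 523 and 415 with EtOH and 973 and 929 with OHT (2.03-fold, adjusted p = 0.0171, authors' deposited table), and limma-voom did not call it without OHT library A (adjusted p = 0.0746). Of 6 genes listed for ligand shedding and processing 1 rose. The list includes Tnfaip1, whose part in either was not checked. Rhbdf1, an inactive rhomboid protein that helps the TNF-cleaving protease ADAM17 mature, went from 25.7 and 28.6 to 176 and 130 (5.61-fold, adjusted p = 1.4e-06, authors' deposited table). Of Adam17, the 1 RefSeq transcript in the table (NM_001277266) had 0 reads with EtOH and 2 with OHT, which need not be the level of the whole gene.

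Of 22 TNF-responsive genes, 6 rose and 0 fell by the authors' deposited table, with a median log2 fold change of 0.90. Of all transcripts 3.62% rose. The log2 fold change was positive for 17 and negative for 5, namely Vcam1, Il6, Sod2, Csf2 and Bcl2a1a. Of the 17, Sele and Cxcl1 had 0 reads with EtOH, so their sign was fixed. Vcam1 stood at 289 with EtOH and 125 with OHT and Sod2 at 877 and 763, each with both OHT libraries below both EtOH libraries. Il6 stood at 45.3 and 21.2 with overlapping libraries. Icam1, an adhesion molecule for leukocyte integrins, rose 3.61-fold from 282 to 1018 (adjusted p = 0.00124), and the cytokine gene Il1b 4.24-fold from 59.2 to 251 (adjusted p = 0.0107) in the authors' deposited table. The survival gene Ier3 rose 2.06-fold, the stress gene Gadd45b 2.03-fold, the gelatinase gene Mmp9 1.90-fold and Tnfaip2 1.84-fold by the authors' deposited table. Tnfaip2 lost its limma-voom call when EtOH library B (adjusted p = 0.0865) or OHT library A (0.236) was left out, and Gadd45b when EtOH library A (0.0550) or OHT library A (0.354) was. These genes also respond to other signals, and the list does not measure TNF signalling.

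**Figure D5:**
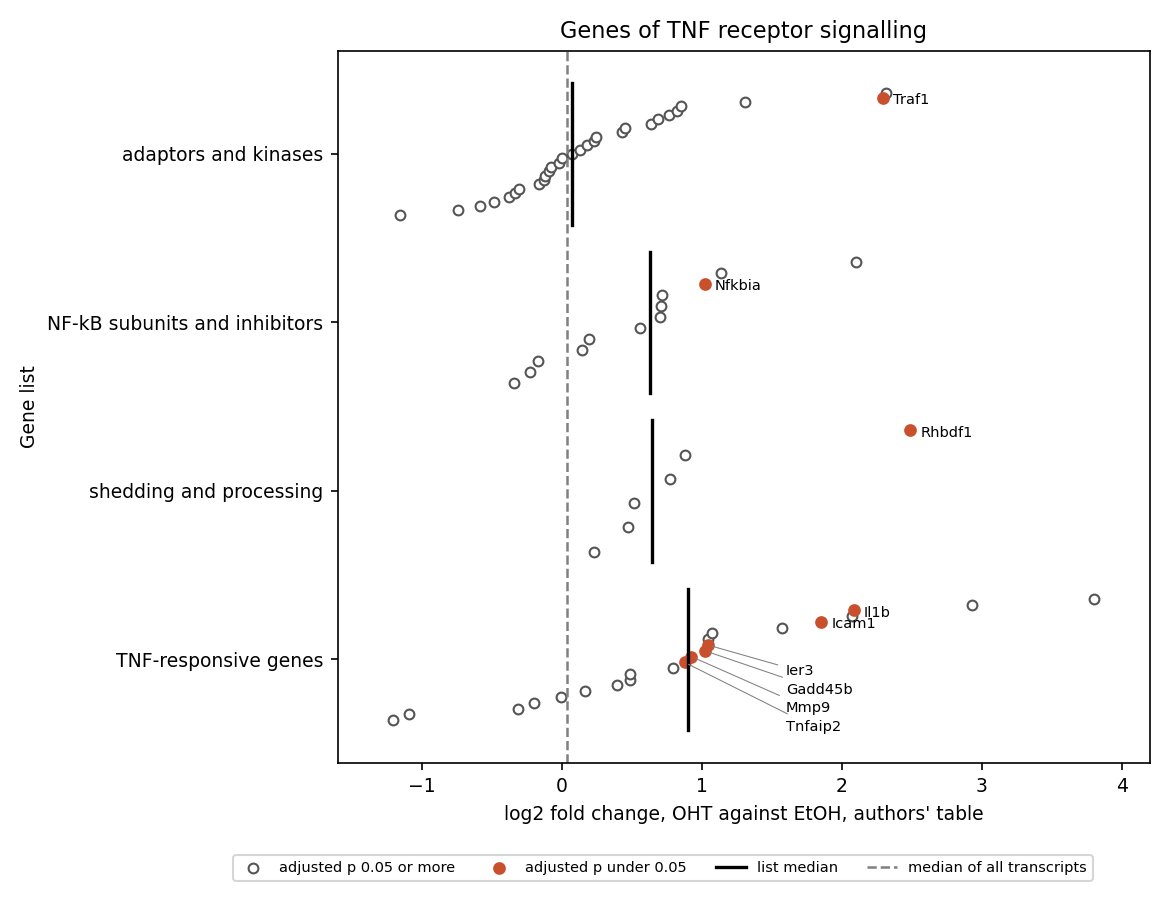
Log2 fold changes in the authors' table for the 69 genes of the 4 lists of TNF receptor signalling, filled and named where the adjusted p was under 0.05, with list medians as black bars and the median of all transcripts as a dashed line. The adaptors centre near the dashed line (0.07) and the TNF-responsive genes to its right (0.90).

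Markers of other cell types were read beside these results. Leukaemic myeloid markers gave no call among 11, with summed normalised reads of 3689 to 4531 with EtOH and 4066 to 4209 with OHT. In the authors' deposited table Spi1 had 1353 and 1460 and Kit 2.72 and 5.03. The Kit value is that of 1 RefSeq transcript, with 4 reads with EtOH and 8 with OHT. Csf3r was read on a non-coding transcript. Neither need be the level of the whole gene. The 11 differed: both OHT libraries lay above both EtOH libraries for 2 (Cd34 and Itgam) and below for 2 (Ctsg and Myb). Mpo stood at 19.1 and 161 in EtOH libraries A and B and 352 and 51.4 in OHT libraries A and B. Elane stood at 111 and 529 with EtOH and 505 and 161 with OHT. Of 10 macrophage markers 4 rose in the authors' deposited table, where 3.62% of all transcripts rose. The 10 summed to 2650 and 995 in EtOH libraries A and B and 4948 and 5636 in OHT libraries A and B. All 10 log2 fold changes were positive, with a median of 3.04. Both OHT libraries lay above both EtOH libraries for all 10, where this held for 26.3% of all transcripts. Limma-voom called 7 of the 8 it fitted higher, against 9.72% of all fitted transcripts. The 9 dendritic cell markers (2 rose, Itgax and Batf3) summed to 130 to 161 with EtOH and 681 to 763 with OHT. Itgax gave most of that sum, at 99.5 and 80.7 in EtOH libraries A and B and 626 and 529 in OHT libraries A and B. Both OHT libraries lay above both EtOH libraries for 5 of the 9 and below for 1, and Flt3, Zbtb46 and Xcr1 overlapped between groups. EtOH library A thus lay above library B in the macrophage sum, to which Emr1 gave 1883 and 635, as it did for Tnfsf9, Tnfsf12, Tnfsf14, Tnfrsf23, Tnfrsf1b and Tnfrsf26. Among OHT libraries B was the higher in that sum and for Tnfsf9, Tnfsf12, Tnfsf14 and Tnfrsf26, while A was the higher for Tnfrsf23 and Tnfrsf1b. The macrophage markers themselves differed there. Emr1 (2376 and 3316 in OHT libraries A and B), Cd68, C1qa, C1qb, C1qc and Siglec1 were higher in B. Csf1r (1472 and 747), Mertk, Mrc1 and Vsig4 were higher in A. Over the 22 fitted members A was the higher EtOH library for 17, and over all fitted transcripts for 57.2%.

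The T cell markers Cd3d, Cd3g and Cd4, the NK cell marker Ncr1 and Ebf1, a B cell transcription factor, were at or near 0. Other markers on these lists had more reads with OHT. The NK cell marker Nkg7 had 21 reads with EtOH and 47 with OHT, and Prf1 0 and 10. The B cell marker Blnk had 1 and 17 and the T cell marker Cd5 3 and 13, while Cd22 of B cells had 3 and 0. None of these passed the authors' test. Cd3d was listed at 3.85 and 2.93, Ebf1 at 1.07 and 1.40 and Ncr1 at 1.48 and 0.978 in the authors' deposited table, where a group with 0 reads is listed at about 1. Sums were 173 to 644 with EtOH and 599 to 1254 with OHT over 6 T cell markers (0 rose), carried by Cd28 and Il7r. They were 65.5 to 121 and 111 to 203 over 5 B cell markers (0 rose), carried by Cd79b, and 8.29 to 23.4 and 30.1 to 30.2 over 3 NK cell markers (0 rose). Over 7 stromal markers (2 rose, Thy1 and Col1a1, against 3.62% of all transcripts) they were 47.3 to 65.1 and 287 to 530. Over 7 endothelial markers (0 rose) they were 62.5 to 185 and 241 to 425. The members of both lists differed. Thy1 stood at 22.4 and 358 and Pdgfra at 1.07 and 2.38 in the authors' deposited table. Vwf, which made up most of the endothelial sum, stood at 143 and 35.2 in EtOH libraries A and B and at 209 and 389 in OHT libraries A and B, and limma-voom called it higher (1.87, adjusted p = 0.0443). Kdr had 0 reads with EtOH and 17 with OHT, and Cdh5 3 and 0. The part of macrophage, dendritic, stromal and endothelial marker levels in the results above was not tested.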

How the data were processed

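The deposited table holds 1 mean per group for 2 EtOH and 2 OHT RNA-seq libraries (72 h). Per the labels' protocols the library kit was TruSeq RNA, version 2, which keeps no strand. TopHat, DESeq and mm9 appear in the submitters' processing notes; versions and the read counter are not given in the sources used here. The deposited signal values are, per the file headers, base means; the deposited ratio is OHT over EtOH, the deposited log2 value its logarithm, and the deposited p-values are a p and an adjusted p.

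Each mean solved uniquely (100% of 18061 in both groups) as whole reads of 2 libraries with 1 read added per library; totals were 6255320, 3841243, 5687967 and 4509718 reads. When means were moved by up to 0.1%, 0.21% (EtOH) and 0.277% (OHT) still solved. No transcript had 0 reads in every library. The solver and the fit were tested on simulated data.

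Calls are the authors' adjusted p under 0.05. Limma 3.58.1 (voom, R 4.3.3) was run on solved reads with the solved size factors, Benjamini-Hochberg adjustment, and at least 10 reads in 2 libraries. Alternatives changed scaling, filter, adjustment and libraries. No label tells whether samples were separate cultures, so a p-value reflects sample-to-sample spread that could be technical. Intervals and floors (3 reads over a group) cover counting error only.

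A gene is represented by its transcript with the highest mean. Every member is named; full values go to members called by either test and to the 5 ligands and 8 receptors of highest mean, others by reads or library values. Of each pathway list up to 6 called genes are named. Genes outside this rule (C3, Tubb4a, Gm11110, Adam17 and single cell type markers) were chosen after their values were seen. Members and lists were chosen with earlier results of these data known. RefSeq promoter and neighbour tables follow GRCm38.p6, not mm9; 36 of 37 member genes matched by symbol, and all 37 had a GENCODE M21 transcript length. One listed cell type marker is not reported here and was left out of its list's sum.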

Additional observations from a re-analysis of the deposited data

How the results depend on the processing

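Adjusting the authors' p-values over fewer transcripts, or a threshold of 0.1, left 3 ligands and 2 receptors higher and none lower. Limma-voom with the solved size factors, TMM or library totals gave 3 ligands and 4 receptors higher, and without the filter 5 and 7. Leaving out 1 library at a time gave 2 to 3 ligands and 3 to 5 receptors higher, and 0 to 1 receptors lower; the 1, without EtOH library A, was Tnfrsf4. Genes of the 4 signalling lists called higher numbered 9 by the authors' test and 14 (solved size factors), 15 (TMM), 15 (library totals) and 17 (no filter) by limma-voom, with 8 to 19 when 1 library was left out (16 without OHT library B). Those called lower numbered 1 without the filter and 0 to 2 when 1 library was left out. Over all transcripts, 654 were higher and 335 lower by the authors' test. Limma-voom gave 1102 and 623, with TMM 1231 and 559, with library totals 1168 and 488 and with no filter 1646 and 800. Leaving out 1 library gave 795 to 1597 higher (1046 without OHT library B) and 133 to 1075 lower (656 without EtOH library B), with the lowest counts without OHT library A and the highest without EtOH library A. For these counts the cause was not tested, beyond the fewer or more libraries and transcripts each fit holds. Omissions leave 1 sample in a group, which is assumed to vary like the other group, with 1 residual degree of freedom.

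Tnfsf10 turned to -0.212 when EtOH library A was left out and to -0.0725 when OHT library A was. No paired analysis was possible because the group means, and the libraries solved from them, carry no replicate numbers. No change was detectable at this depth for the 6 genes with at most 3 reads in each group. For Cd40 the count is that of a non-coding transcript and need not be the level of the whole gene.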
